A study of Zea mays subsp. mays with 2 samples.

Results

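Genes that lie side by side and are of nearly the same length are candidates for tandem copies, and the transcriptomes of maize shoot and root were used to ask whether the loci of such pairs share their organ bias. The pairs were chosen by position alone. On chromosomes 1 to 10, every locus that was alone at its position and spanned more than 1000 bases was paired with the next listed position where that also qualified. A pair was kept where the gap between the loci was 1000 to 50000 bases and their spans, end minus start with introns included, differed by at most 2% of the larger. This gave 154 pairs made of 305 distinct loci, of 29674 loci in all. The comparison set was the other 8095 pairs of qualifying neighbours in the same gap range, whose spans differed by more than 2%.

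Plants of B73, a maize inbred with a reference genome, were harvested 14 days after germination and divided into shoots and roots. Each organ gave 1 library of polyadenylated RNA, without strand information. Levels are FPKM, a fragment count corrected for the length of the transcript and the size of the library, on loci assembled by the authors with coordinates of B73 RefGen_v2. With 1 library per organ there was no replicate check, so every difference is between these libraries, and no p-value was computed. The organ ratio of a locus is log2((root FPKM + 1)/(shoot FPKM + 1)). The added 1 FPKM shrinks the ratios of low loci. How many plants entered a library is not given in the sources used here. A locus was called higher in an organ at a log2 ratio of 2 or more in size, or 4-fold.

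Tandem duplicates arise mostly by unequal crossing over between similar sequences on a chromosome, and they are frequent in plant gene families for defence, secondary metabolism and stress response. A fresh copy often keeps the promoter of its parent. Later the copies may keep the same pattern, divide it between organs, or fall silent. Equal span is only a proxy for such a history. The sequences of the loci were not used here, and the identifiers hold no gene names, so whether any pair is a duplication was not tested. How reads that match more than 1 locus were assigned is not given in the sources used here. The part of such reads in any likeness below was not tested.

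The number of pairs did not stand out at small differences in span. There were 89 pairs with spans within 1% of each other and 65 at 1% to 2%. The next 3 steps of 1% held 80, 64 and 82 pairs, and the 5 steps from 5% to 10% held 77 to 83 each. Equal span to the base was found in 3 pairs and spans within 3 bases in 11. The count was thus nearly level from 0 to 10%, the first step being the highest by a small margin. The paired loci spanned 1005 to 25867 bases, and the larger span of a pair had a median of 3130 bases, against 5225 bases in the other neighbours. The median gap was 16796 bases, against 13345 bases. No other listed position overlapped any of the loci, with 0 of 154 pairs affected. Only 3 runs had 3 loci, and 0 had more.

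**Figure D1:**
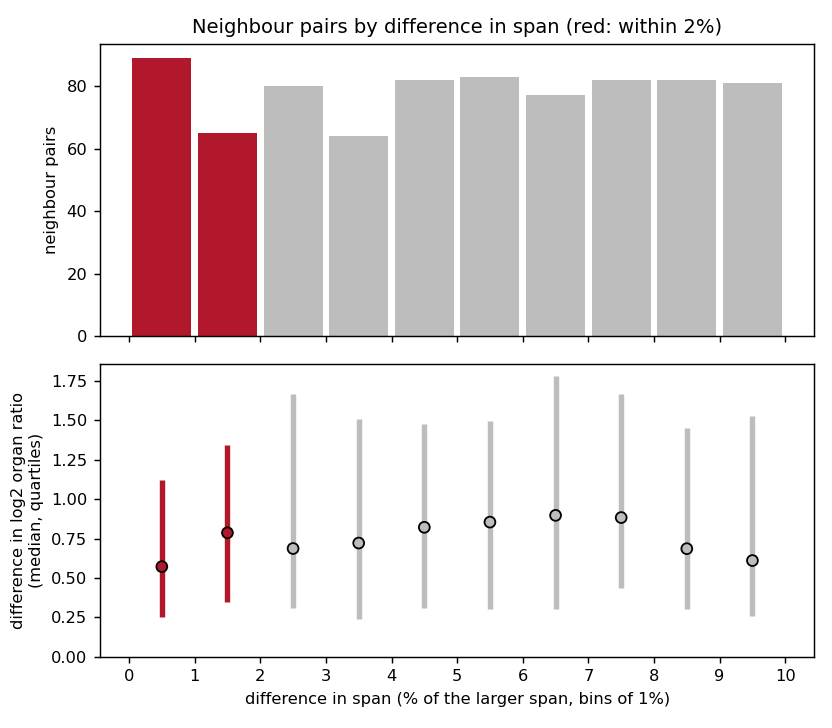
Neighbour pairs in the gap range by the difference in span of their loci, in steps of 1% of the larger span, with the pairs within 2% in red. The upper bars count pairs, 89 and 65 in the red steps and 64 to 83 in the grey ones, and the lower points and lines give the median and quartiles of the difference in log2 organ ratio, whose medians lie between 0.57 and 0.90 in all 10 steps.

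The paired loci were expressed at about the level of all loci, with lower medians than the loci of the other neighbours. In shoot their median was 9.08 FPKM, with quartiles of 2.73 and 24.2, and in root 9.15 FPKM, with quartiles of 2.76 and 25.8. The medians over all loci were 9.84 FPKM and 9.19 FPKM. Of the 305 loci, 252 (82.6%) reached 1 FPKM in both organs, 31 (10.2%) in shoot alone and 22 (7.21%) in root alone. From the steps of the lowest values, 1 FPKM on 1000 effective bases stood for about 113 fragments of the shoot library and 131 of the root library. By that measure, applied to whole spans and so an upper estimate where introns are present, 144 of the 154 pairs rested on 10 fragments or more at each of their 4 values, and 126 on 100 or more.

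At the 4-fold call, the paired loci were about as often organ-biased as loci at large. Higher in shoot were 20 of the 305 (6.56%), with an exact 95% binomial interval of 4.05% to 9.95%, against 6.79% of all loci. Higher in root were 15 (4.92%, interval 2.78% to 7.98%), against 3.52% of all loci. Both background shares lay within these intervals, which cover counting error only and treat loci as independent. At 2-fold, 14.1% of the paired loci were on the shoot side and 14.4% on the root side, against 15% and 11.9% of all loci, and with a pseudocount of 0.1 FPKM the shares were 10.2% and 8.85%, against 10.9% and 6.38%.

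Calls that ask for a large change in FPKM found few paired loci on the shoot side. At 8-fold, 2 loci (0.656%, interval 0.0795% to 2.35%) were higher in shoot, against 3.50% of all loci, and 7 (2.30%, interval 0.928% to 4.67%) were higher in root, against 1.28%. With a pseudocount of 5 FPKM, 4 loci (1.31%, interval 0.358% to 3.32%) were higher in shoot, against 3.61%, and 6 (1.97%, interval 0.725% to 4.23%) in root, against 1.40%. Under both rules the shoot interval lay below the share of all loci and the root interval included it. The loci of the other neighbours were at 3.35% in shoot at 8-fold and at 3.61% with the pseudocount of 5.

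The balance between the organs shifted with the scaling of the libraries. With root divided by the median root to shoot ratio, 21 paired loci (6.89%) were called toward shoot and 14 (4.59%) toward root, against 7.06% and 3.22% of all loci. With root rescaled to the sum of shoot, a setting added after the data were seen, each side had 19 (6.23%), against 6.47% and 3.99%. With both libraries brought to the same round sum, which also shrinks all values against the pseudocount, 9 (2.95%) and 10 (3.28%) were past the call, against 4.90% and 2.73%.

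Within a pair, the organ ratios had a smaller median difference than in other neighbours, with intervals that overlapped over all pairs but not at every span. The median difference between the log2 ratios of the loci was 0.63, with quartiles of 0.25 and 1.29. In the other neighbours it was 0.75, with quartiles of 0.32 and 1.60. The 95% order-statistic intervals of these medians, 0.51 to 0.79 and 0.72 to 0.77, overlap. The lower median held for the 89 pairs with spans within 1% (0.57) but not for the 65 at 1% to 2% (0.79). At larger spans of 2000 to 4000 bases, the 71 near-equal pairs had 0.64 (0.48 to 0.79) and 2219 others 0.88 (0.82 to 0.93). There the intervals did not overlap, which was so in no other range of gap, level or span. These ranges match the larger span of a pair only, so the other neighbours in them can hold a much shorter locus. Near-equal medians were also lower at 4000 to 8000 bases (0.59 against 0.72) and above (0.31 against 0.65), with overlapping intervals. Up to 2000 bases the order was reversed, at 0.99 against 0.93. Ratios 4-fold or more apart were found in 20 of 154 pairs (13.0%, exact interval 8.12% to 19.3%), against 18.3% of the other neighbours. The ratios of both loci had the same sign in 95 pairs (61.7%, interval 53.5% to 69.4%), against 54.8%. Across pairs, with each pair entered in both orders, the Pearson coefficient of the ratios was 0.33 and Spearman's was 0.29. The other neighbours gave 0.08 and 0.10. These coefficients describe 154 and 8095 pairs from the same libraries, and leaving out 1 near-equal pair at a time moved the Pearson coefficient between 0.25 and 0.38. Without the pairs that had a called locus, it was 0.27 over 123 near-equal pairs and 0.09 over 6593 others.

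**Figure D2:**
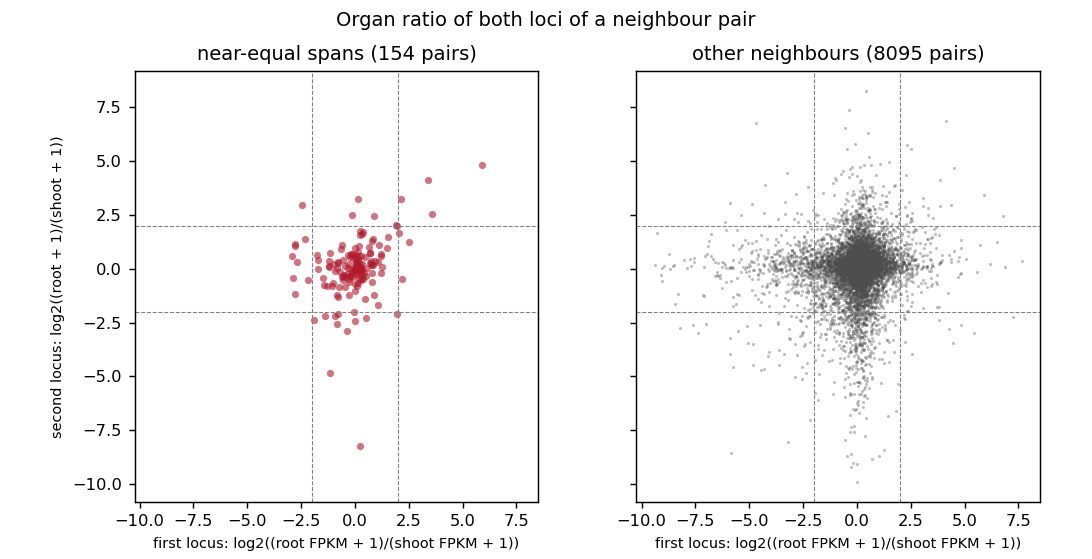
Log2((root FPKM + 1)/(shoot FPKM + 1)) of the first locus of a pair, by position, against the second, for the 154 near-equal pairs and the 8095 other neighbours. Dashed lines mark the 4-fold call, and the upper right corner of the left panel holds the 4 pairs whose loci were both called higher in root while its lower left corner is empty.

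By the difference in span, rank correlations were highest at the smallest differences, but not in every step. Pairs within 0.25% had coefficients of 0.54 (Pearson) and 0.52 (Spearman) over 21 pairs, and those at 0.25% to 0.5% had 0.57 and 0.60 over 28. At 0.5% to 1% they were 0.23 and 0.30 over 40 pairs, and at 1% to 2% they were 0.27 and 0.07 over 65. At 2% to 10%, outside the chosen pairs, they were 0.23 and 0.18 over 631 pairs. Within that range the step from 9% to 10% reached 0.59 by Pearson and 0.33 by Spearman over 81 pairs. Neighbours whose spans differed by more than 50% gave 0.04 and 0.08 over 4009 pairs. The 11 pairs with spans within 3 bases differed by a median of 0.75 in log2 ratio, no less than other neighbours.

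By distance between the loci, the closest near-equal pairs had the smallest median difference, but the rest did not follow the order of distance. At gaps of up to 5000 bases, the 45 near-equal pairs differed by a median log2 ratio of 0.52, with an interval of 0.35 to 0.68, and the 2515 other neighbours by 0.71, with an interval of 0.67 to 0.76. These intervals overlap slightly. The Pearson coefficient there was 0.51 for near-equal pairs and 0.03 for the others, and it fell to 0.34 without the single pair that raised it most and to 0.27 over the 38 without a called locus. Between 5000 and 10000 bases the order was reversed, with medians of 1.09 over 15 near-equal pairs and 0.73 over 1068 others, again with overlapping intervals. Those 15 pairs nevertheless had a Pearson coefficient of 0.55, against 0.19 in the others, with 0.18 against 0.22 by Spearman. From 20000 to 50000 bases the medians were 0.63 over 70 pairs and 0.80 over 3223. The ranges of gap, like the steps of span difference, were set after values of these data had been seen.

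**Figure D3:**
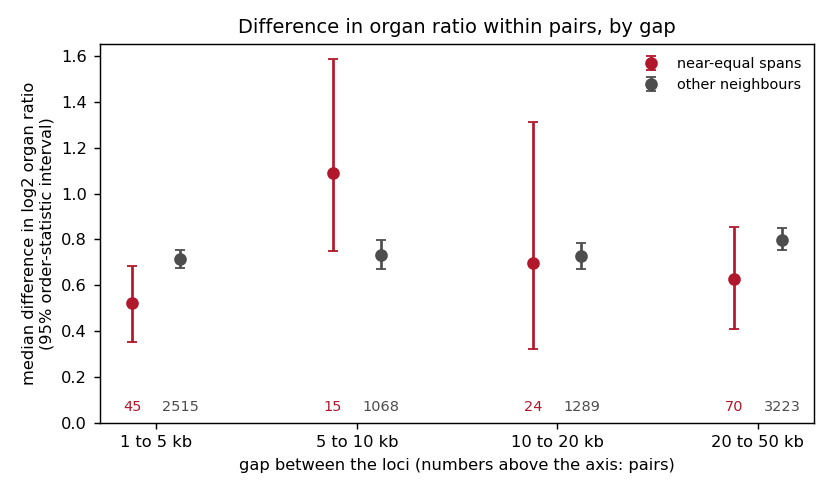
Median difference in log2 organ ratio between the loci of a pair in 4 ranges of gap, for near-equal pairs in red and other neighbours in grey. Bars are 95% order-statistic intervals over pairs and the numbers above the axis count pairs; the red medians are 0.52, 1.09, 0.70 and 0.63 and the grey ones 0.71, 0.73, 0.73 and 0.80.

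Among the ranges of larger span, the correlation was highest in short loci. Where the larger span was at most 2000 bases, the 36 near-equal pairs had coefficients of 0.48 (Pearson) and 0.56 (Spearman), against 0.26 and 0.27 in 394 other neighbours of that size. Short neighbours with spans 2% to 10% apart, 111 of these, were nearer to the near-equal pairs, at 0.33 and 0.33. Above 2000 bases, the 118 near-equal pairs gave 0.09 and 0.17, against 0.06 and 0.09 in 7701 others. In these longer pairs the median difference was 0.61, against 0.74. Their coefficients were not uniform. At 2000 to 4000 bases the 71 near-equal pairs gave 0.17 (Pearson) and 0.27 (Spearman), against 0.10 and 0.13 in the others. At 4000 to 8000 bases, 40 pairs gave -0.16 and -0.08, against 0.03 and 0.05. The short pairs were not closer in size of ratio, with a median difference of 0.99 against 0.93. They held more biased loci, 26.4% of their loci counted per pair, against 18.4% in the other short neighbours and 25.7% in those 2% to 10% apart.

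Pairs with both loci called in the same direction were few, and all of them pointed to root. There were 4 such pairs (2.60%, exact interval 0.712% to 6.52%), against 1.0% of the other neighbours, where 26 pairs were both higher in root and 55 both higher in shoot. Loci called in opposite directions made up 1 pair, against 0.383% of the others, and 26 pairs had a single called locus, against 17.2%. Neither locus was called in 123 pairs. Of the 31 near-equal pairs with any called locus, 12.9% were called alike (interval 3.63% to 29.8%), against 5.39% of 1502 (4.31% to 6.66%), and these intervals overlap, as the interval around 2.60% also spans the share of the other neighbours.

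Other call rules gave other counts. With a pseudocount of 0.1 FPKM, 13 pairs (8.44%, exact interval 4.57% to 14.0%) had both loci called in the same direction, 10 toward root and 3 toward shoot, against 2.42% of the other neighbours. At a 2-fold call 14 pairs (9.09%, 5.06% to 14.8%) were called alike, against 5.0%. At 8-fold 2 pairs were, against 0.272%, and with a pseudocount of 5 again 2, against 0.284%. The interval of the near-equal pairs lay above the share of the others with the low pseudocount and, barely, at 2-fold; with a pseudocount of 5 or at 8-fold it ran from 0.158% to 4.61% and included that share. Pairs in a run share a locus, and 1 run supplied 2 of the 13. Another 3 of the 13 hold a locus listed at 0 in an organ, which the low pseudocount always calls, since every listed locus exceeds 1 FPKM somewhere. The same holds for loci close to 0 in an organ. Examples are the chromosome 9 loci at 0.0246 and 0.0084 FPKM in shoot and the chromosome 2 loci at 0.0988 and 0.117 FPKM. Where both loci were that low, the pair called alike shows only that they were low in the same organ.

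Of the 13 pairs called alike at the low pseudocount, 12 were short. Of the 36 near-equal pairs with a larger span of at most 2000 bases, 12 (33.3%, exact interval 18.6% to 51.0%) were called alike, against 12.2% of the other neighbours of that size (9.12% to 15.8%). Short neighbours with spans 2% to 10% apart lay between, at 20.7% of 111 pairs (13.6% to 29.5%). Above 2000 bases, 1 of 118 near-equal pairs was called alike (0.847%), against 1.92% of the others. With the pseudocount of 1, the shares of short pairs were 8.33% against 4.57%, below the 10.8% of short neighbours 2% to 10% apart, and of longer pairs 0.847% against 0.818%. The combination of this split with the low pseudocount was chosen after the values were seen. Most of the 12 short pairs hold a locus so low in an organ that the low pseudocount calls it whatever its other level. This is because every listed locus exceeds 1 FPKM somewhere. In some, such as the chromosome 7 loci at 0.0187 and 0.0230 FPKM in shoot, both loci are that low. The share of 33.3% thus cannot separate a shared organ bias from low levels in the same organ.

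Of the 4 root pairs, that on chromosome 9 had the largest ratios. The locus of 135299045 to 135300324 had a shoot level of 0.0246 FPKM and a root level of 60.1 FPKM, while that of 135306335 to 135307589 had 0.00840 FPKM and 27.8 FPKM. Both were thus close to silent in shoot, on about 2.94 and 0.982 fragments, and abundant in root. The folds of 2444 and 3313 are imprecise for that reason, with exact conditional intervals for counting error of 836 to 11852 and 594 to 130883. The nearest listed positions on either side, with 1.93 and 2.89 FPKM (shoot) and 4.06 and 8.69 FPKM (root), had log2 ratios of 0.79 and 1.32.

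The closest pair of the 4 lay on chromosome 2, with a gap of 1718 bases and spans of 2773 and 2775. Its first locus, from 3224530 to 3227303, had a shoot level of 2.37 FPKM and a root level of 34.2 FPKM, a 14.5-fold difference (interval 13.4 to 15.7). Its second, from 3229021 to 3231796, was at 0.277 FPKM and 21.5 FPKM, a 77.6-fold difference (62.2 to 98.0). Both were root loci, but their levels differed 8.55-fold in shoot (6.77 to 10.9) and only 1.59-fold in root (1.55 to 1.64). Flanking positions 35310 bases before and 106280 bases after had log2 ratios of 0.63 and -0.47.

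On chromosome 7, the pair from 168865129 to 168866566 and from 168904049 to 168905478 had 0.0187 and 0.0230 FPKM (shoot) and 11.2 and 5.05 FPKM (root). The shoot values rest on about 2.58 and 3.15 fragments. Just before it lay another near-equal pair, from 168813454 to 168815052 and from 168821201 to 168822779, both listed at 0 in shoot, with root levels of 1.93 and 1.81 FPKM. That neighbouring pair, named after its values were seen, had log2 ratios of 1.55 and 1.49 and missed the 4-fold call. Together they make 4 loci with root levels and next to none in shoot, while the next position, from 168913687 to 168922703, had a shoot level of 42.2 FPKM and a root level of 43.5 FPKM, and the one after it, from 168993824 to 168995258, was again low in shoot, at 0.230 FPKM, and at 12.5 FPKM in root.

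The fourth pair, on chromosome 6, differed in level in both organs. The locus of 159437494 to 159438796 had a shoot level of 3.79 FPKM and a root level of 20.03 FPKM, while that of 159464298 to 159465610 had 9.94 FPKM and 104 FPKM. The second locus was 2.62-fold higher in shoot (2.35 to 2.92) and 5.17-fold higher in root (4.97 to 5.39). Its root bias, 10.4-fold (9.84 to 11.1), was thus larger than the 5.28-fold (4.79 to 5.84) of the first.

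The runs of 3 loci showed 3 different arrangements. On chromosome 1, the loci of 206306680 to 206307685, of 206312295 to 206313309 and of 206315470 to 206316480 had shoot levels of 0.859, 0.452 and 0.144 FPKM and root levels of 6.05, 4.92 and 2.60 FPKM. Their log2 ratios were 1.92, 2.03 and 1.65, so the 3 leaned to root alike and only the middle one passed the call. The positions on either side, at 8.63 and 13.1 FPKM in root, were called higher in root as well. A run on chromosome 5 kept its ratios near 0 while the levels moved widely: its loci from 4101149 to 4102443, from 4152288 to 4153607 and from 4197993 to 4199309 had shoot levels of 186, 1.79 and 50.7 FPKM and root levels of 133, 2.09 and 55.4 FPKM. The middle locus was 104-fold below the first in shoot and 63.9-fold below it in root.

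The third run, on chromosome 1, had similar levels in shoot and unlike levels in root. Its loci from 290471864 to 290474108, from 290521511 to 290523768 and from 290553070 to 290555320 had shoot levels of 29.3, 33.5 and 43.1 FPKM. In root they were at 62.9, 9.62 and 42.2 FPKM, with log2 ratios of 1.08, -1.70 and -0.03. The middle locus was 6.54-fold below the first in root.

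The median fold between the levels of near-equal neighbours was smaller than in other neighbours, in shoot beyond the intervals of the medians. The median fold between the higher and the lower locus was 3.11 in shoot over 152 pairs, with an order-statistic interval of 2.58 to 3.57, and 3.27 in root over 153 pairs (2.59 to 4.36). Other neighbours had medians of 3.87 (3.74 to 4.05) and 4.27 (4.10 to 4.47). The shoot intervals do not overlap and the root ones do. The near-equal pairs were also lower in level, with a median over their 4 values of 13.9 FPKM against 16.5 FPKM, and the order was not the same at all levels. In shoot the medians were 2.79 against 2.07 at mean levels up to 3 FPKM, 2.58 against 3.21 at 3 to 10, 3.68 against 3.72 at 10 to 30, and 2.77 against 7.38 above 30, so the pairs with the most abundant loci showed most of the difference. Among pairs with both loci at 5 FPKM or more in an organ, the medians were nearer, at 2.51 against 2.73 in shoot and 2.60 against 3.03 in root. At gaps of up to 10000 bases the root medians were further apart, at 2.42 against 4.25. In 28 pairs the loci were within 2-fold of each other in both organs. Levels correlated weakly within pairs, with a Pearson coefficient over log2(FPKM + 1) of 0.24 in shoot and 0.26 in root, against 0.06 and 0.05.

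The higher locus was mostly the same in shoot and root. In the 151 pairs with all values above 0 it was the same in 124 (82.1%), the first in 67 and the second in 57, against 82.0% of the other neighbours. In 18 pairs the loci differed 10-fold or more in both organs, with the same locus higher in 17 of them. Neither locus was called in 16 of these 18, whose median difference in log2 ratio was 0.34. On this scale, a locus far below its neighbour could thus have nearly the neighbour's organ ratio. The added 1 FPKM draws the ratio of the lower locus toward 0. The median without it, and that of other neighbours 10-fold apart, were not computed.

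The most abundant pairs include both equal and very unequal levels. On chromosome 7, the locus of 173600093 to 173601392 had a shoot level of 222 FPKM and a root level of 163 FPKM, while that of 173650663 to 173651941 had 207 FPKM and 113 FPKM. On chromosome 6, the locus of 161416124 to 161419368 had a shoot level of 103 FPKM and a root level of 175 FPKM, while that of 161446442 to 161449675 had 107 FPKM and 139 FPKM. Both pairs were high and close in level in both organs. On chromosome 5, by contrast, the locus of 203036198 to 203041077 had a shoot level of 286 FPKM and a root level of 141 FPKM, while that of 203081071 to 203085908 had 1.02 FPKM and 0.287 FPKM. On chromosome 8, the locus of 141377040 to 141379660 had a shoot level of 2.38 FPKM and a root level of 3.05 FPKM, while that of 141393046 to 141395674 had 138 FPKM and 207 FPKM. In these unequal pairs the log2 ratios were -1.01 and -0.65, and 0.26 and 0.59.

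Among pairs with nearly identical spans, the levels also ranged widely. The loci of 5121 bases each on chromosome 6, from 9490172 to 9495293 and from 9497211 to 9502332, had shoot levels of 19.9 and 19.2 FPKM and root levels of 25.4 and 18.3 FPKM. On chromosome 4, the locus of 179624852 to 179627398 had a shoot level of 36.3 FPKM and a root level of 65.6 FPKM, and that of 179646907 to 179649455 had 68.3 FPKM and 78.2 FPKM. The pair on chromosome 8 from 104616009 to 104620020 and from 104659957 to 104663970 had 40.7 and 32.9 FPKM (shoot) and 57.8 and 25.8 FPKM (root). These 3 pairs stayed within 2.24-fold of each other in either organ. On chromosome 7, the locus of 15276392 to 15282967 had a shoot level of 25.1 FPKM and a root level of 28.9 FPKM, and that of 15316464 to 15323036 had 6.83 FPKM and 6.53 FPKM. On chromosome 10, the locus of 18738926 to 18741301 had a shoot level of 73.3 FPKM and a root level of 15.4 FPKM, and the one of 18753096 to 18755470 had 2.95 FPKM and 1.73 FPKM. That first locus alone was called, with a log2 ratio of -2.18 against -0.53.

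In 6 of the 151 pairs (3.97%, exact interval 1.47% to 8.45%) the higher locus differed between the organs by 2-fold or more in each, against 5.59% of the other neighbours. The interval spans the share of the others, so a difference was not detectable with this number of pairs.

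**Figure D4:**
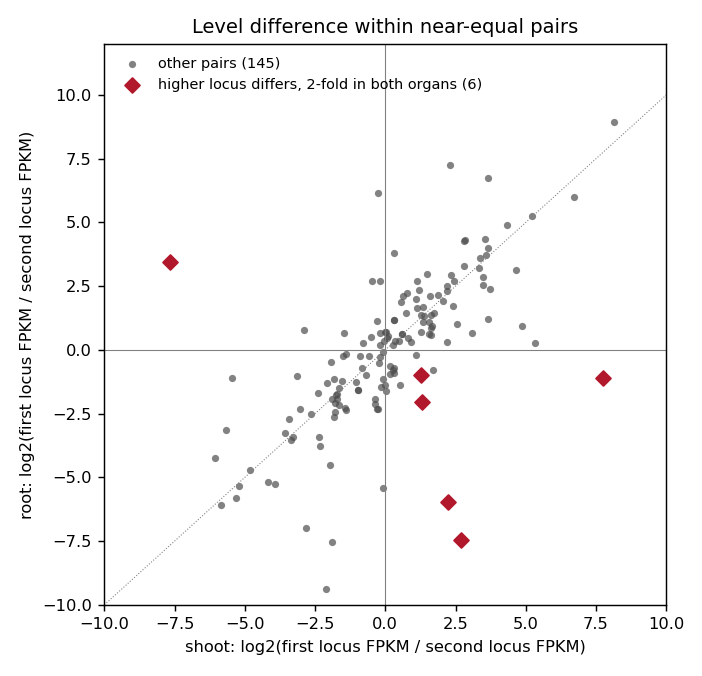
Log2 of the first over the second locus of each near-equal pair in shoot, on the horizontal axis, and in root, on the vertical axis, for the 151 pairs with all values above 0. The dotted line marks equal differences in the organs, and the 6 red diamonds are the pairs whose higher locus differed between shoot and root by 2-fold or more in each.

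The single pair called in opposite directions was among these 6. On chromosome 4, the locus of 19327993 to 19330845 had a shoot level of 6.06 FPKM and a root level of 0.270 FPKM, 22.4-fold higher in shoot (18.2 to 27.9). The locus of 19352602 to 19355483 had a shoot level of 1.30 FPKM and a root level of 17.0 FPKM, 13.0-fold higher in root (11.8 to 14.5). The first led 4.66-fold in shoot (4.18 to 5.21) and the second 62.7-fold in root (51.1 to 77.8). Each organ had its own main locus, and the listed positions on either side, 214389 bases before and 68302 bases after, had log2 ratios of 0.31 and 0.18.

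Other exchanges rested on a change at mainly 1 of the loci. On chromosome 2, the locus of 236795933 to 236797300 had a shoot level of 360 FPKM and a root level of 0.203 FPKM, a 1776-fold difference (1244 to 2633), while the locus before it, from 236772075 to 236773450, was at 1.79 FPKM and 2.23 FPKM. This was also the pair with the largest difference in log2 ratio, 8.45. On chromosome 9, the locus of 59829796 to 59831485 had a shoot level of 3.07 FPKM and a root level of 2.76 FPKM, and the one of 59840884 to 59842586 had 1.23 FPKM and 11.5 FPKM. In the second pair on chromosome 2, the locus of 185397932 to 185399617 had a shoot level of 1.39 FPKM and a root level of 2.05 FPKM, while that of 185438681 to 185440385 had 0.569 FPKM and 4.12 FPKM. The root fold between these last loci, 2.004, had an interval of 1.77 to 2.27, so whether it reaches 2-fold cannot be told at this depth, and its shoot fold of 2.44 likewise had an interval of 1.91 to 3.13.

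Exchanges with opposite leanings at both loci were found on chromosomes 7 and 9. On chromosome 7, the locus of 1557369 to 1559384 had a shoot level of 6.09 FPKM and a root level of 0.0188 FPKM, the latter on about 4.38 fragments, while that of 1567767 to 1569801 had 0.931 FPKM and 3.32 FPKM. On chromosome 9, the locus of 130851130 to 130853179 had a shoot level of 9.60 FPKM and a root level of 0.540 FPKM, and the one of 130882504 to 130884551 had 0.0447 FPKM and 1.16 FPKM. Their spans of 2049 and 2047 bases were among the most equal of all pairs. In each of these pairs the first locus was called higher in shoot and the second, at log2 ratios of 1.16 and 1.05, missed the call toward root. The root fold between the chromosome 9 loci, 2.16, also had an interval that includes 2, from 1.74 to 2.68.

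**Figure D5:**
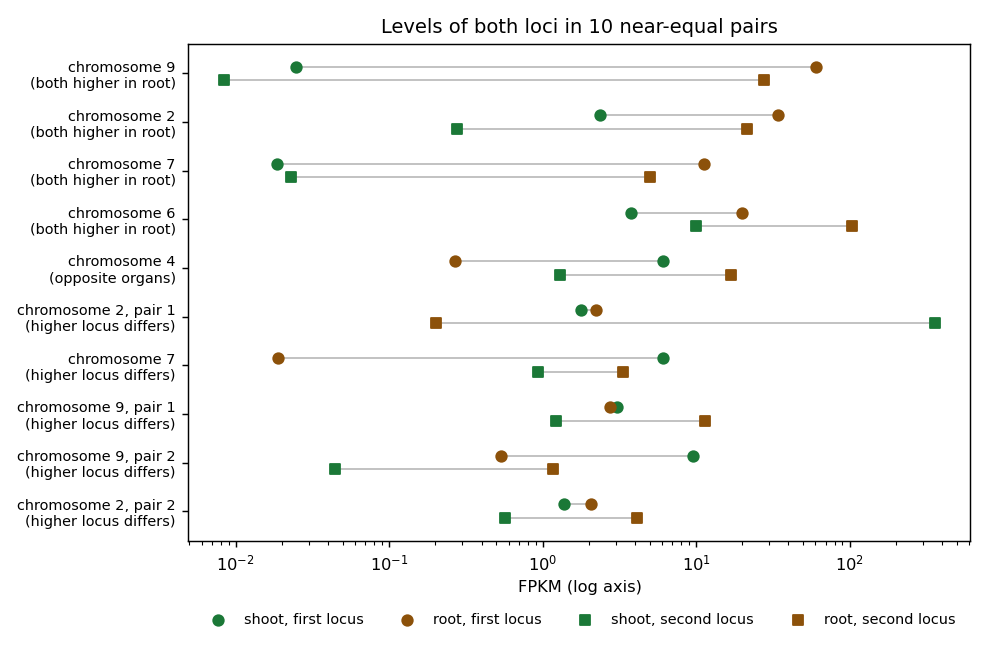
FPKM on a log axis of both loci of 10 near-equal pairs, with shoot in green and root in brown, circles for the first locus and squares for the second. In the upper 4 pairs both root values lie to the right of both shoot values of their loci, and in the lower 6, the opposite-organ pair on chromosome 4 included, the order of circle and square changes between the organs.

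Apart from the chromosome 4 pair, the pairs with the largest differences in organ ratio, among those with both loci at 5 FPKM or more in an organ, had a single called locus. On chromosome 7, the locus of 129961211 to 129965698 had a shoot level of 3.803 FPKM and a root level of 17.8 FPKM, and the locus 1408 bases further, from 129967106 to 129971642, had 167 FPKM and 37.9 FPKM. Their folds, 4.68 toward root (4.45 to 4.92) and 4.41 toward shoot (4.34 to 4.47), pointed opposite ways, but the first missed the call at a log2 ratio of 1.97. Also on chromosome 7, the locus of 169923974 to 169926259 had a shoot level of 8.65 FPKM and a root level of 0.260 FPKM, beside 31.9 FPKM and 48.0 FPKM from 169936494 to 169938812. On chromosome 5, the locus of 159802554 to 159804449 had a shoot level of 1.20 FPKM and a root level of 20.01 FPKM, beside 34.6 FPKM and 38.2 FPKM from 159757823 to 159759689. On chromosome 1, the locus of 180693780 to 180694816 had a shoot level of 5.72 FPKM and a root level of 0.0474 FPKM, on about 4.99 fragments, beside 24.7 FPKM and 31.2 FPKM from 180716290 to 180717339.

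At the limits of the choice, values were mixed on both sides. Just inside the limit on span, at 1.997%, the chromosome 8 loci from 145601435 to 145608845 and from 145615562 to 145622824 had shoot levels of 9.41 and 26.5 FPKM and root levels of 24.0 and 28.5 FPKM. Just outside it, at 2.005%, the chromosome 5 loci from 208899191 to 208901236 and from 208924848 to 208926852 had shoot levels of 4.63 and 6.83 FPKM and root levels of 4.06 and 1.39 FPKM. The smallest gap kept was 1026 bases, on chromosome 7 between the loci of 51749801 to 51753264 and of 51754290 to 51757769, with 1.33 and 9.81 FPKM (shoot) and 0.806 and 0.473 FPKM (root). A near-equal pair left out at a gap of 977 bases, on chromosome 4, had log2 ratios of 0.27 and 0.06. The largest gap kept was 49845 bases, in the run on chromosome 5, and a pair left out at 50281 bases, on chromosome 1, had log2 ratios of 1.72 and -2.83.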

How the data were processed

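Polyadenylated RNA of 1 shoot and 1 root library was sequenced as non-directional paired-end reads of 100 cycles, per the labels' protocols. The authors deposited FPKM values, 1 per locus and organ, above 1 FPKM in at least 1 organ; the lowest value of the higher organ was 1.00022. The submitters' processing notes list TopHat, Cufflinks and Cuffdiff. For versions, settings and the treatment of reads with several matches, nothing is given in the sources used here. Locus coordinates are as deposited, on B73 RefGen_v2, per the file headers. Of the locus identifiers, 0 matched the gene table at hand, of a later assembly, and 0 sample columns were left unused.

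Positions were ordered by start on each chromosome and paired as described above. Depth was read from 113 shoot and 174 root loci with spans of 300 to 2000 bases and FPKM times span under 70. Their values were fitted by whole multiples of 0.00884 and 0.00766 FPKM at 1000 effective bases, with offsets of 220 and 230 bases. Each was the peak of the fit next to the largest multiple that scored at least 0.9 of the best, and not necessarily the best itself. Only 56.6% and 62.1% of the values came within 0.1 of a whole fragment. Medians have 95% order-statistic intervals, shares exact binomial ones and folds exact conditional ones. They treat pairs as independent, cover neither plants nor processing, and those of folds use fragments estimated from whole spans, so they are too narrow where introns are present. Libraries without molecular identifiers count fragments, not molecules.

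Loci are named by position: the 6 most abundant pairs, pairs called alike, opposite or exchanged, the 5 largest differences at 5 FPKM or more, the 5 smallest among pairs with both loci called, runs, the 6 most abundant pairs with spans within 3 bases, and pairs at the limits. The members, lists and rules were chosen with earlier results of these data known. The tools were Python 3.11.15, matplotlib 3.10.9, scipy 1.17.1, numpy 2.4.6 and pandas 2.3.3, and the pairing and depth steps were tested on simulated data. The simulated low values were made from whole fragments, so that test does not show how well the depth fit holds in these libraries. Pseudocounts, call folds, scalings, limits on span and gap, and a minimum of 5 FPKM were varied.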

Additional observations from a re-analysis of the deposited data

How the results depend on the processing

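Of 117 values recomputed under 18 alternatives, 79 stayed within their interval or within 1.5 times the count reported, and 38 moved. Only the difference in medians between near-equal pairs and other neighbours could change sign. In the 14 alternatives that recompute it, the median difference in organ ratio stayed smaller in near-equal pairs than in other neighbours, by -0.18 to -0.02. Within ranges of gap or span it was larger at gaps of 5000 to 10000 (1.09 against 0.73) and at spans up to 2000 (0.99 against 0.93). In the other ranges of gap or span it was smaller, and at spans of 2000 to 4000 the intervals did not overlap (0.64 against 0.88). By difference in span, it was 0.57 in the 89 pairs within 1%. In the 65 pairs at 1% to 2% it was 0.79, above the 0.75 of all other neighbours. At a pseudocount of 5 it was 0.48, against 0.50. The loci called (20 in shoot, 15 in root, of 305) became 31 and 27 at a pseudocount of 0.1, 4 and 6 at 5, 43 and 44 at 2-fold, 2 and 7 at 8-fold, and 9 in shoot with equal sums. Other limits changed the number of loci, and with spans above 2000 the root share also fell, from 4.92% to 1.72%. Called at 5 FPKM or more were 8 in shoot (5.10%, other neighbours 8.09%) and 10 in root (6.37%, 4.03%) of 157 loci. In 89 pairs with spans within 1% they were 13 and 9 of 176 loci (7.39% and 5.11%, other neighbours 6.69% and 3.37%). In 380 pairs within 5% they were 48 and 34 of 748 loci (6.42% and 4.55%, other neighbours 6.72% and 3.32%). In 60 pairs at gaps up to 10000 they were 7 and 6 of 119 loci (5.88% and 5.04%, other neighbours 6.59% and 3.13%). In 94 pairs above that they were 13 and 9 of 186 loci (6.99% and 4.84%, other neighbours 6.67% and 3.55%). With spans above 2000 they were 13 and 4 of 233 loci (5.58% and 1.72%, other neighbours 5.97% and 2.19%). Pairs called alike were 8.44% at a pseudocount of 0.1 (other neighbours 2.42%) and 9.09% at 2-fold (5.0%). The median level fold was 2.51 in shoot at 5 FPKM or more (2.73) and 2.42 in root at gaps up to 10000 (4.25). Exchanged pairs numbered 1 of 79 at 5 FPKM or more (1.27%, other neighbours 5.86%), 17 of 375 within 5% (4.53%, 5.61%), 2 of 58 at gaps up to 10000 (3.45%, 4.78%), 3 of 117 with spans above 2000 (2.56%, 4.44%) and 3 of 151 at 4-fold (1.99%, 2.32%); each interval of the near-equal pairs included the share of the others. Fewer pairs follow from the narrower limits by construction; otherwise the cause was not tested. The scalings moved the median log2 ratio of all loci by -0.09 (root divided by 1.07), 0.08 (equal sums) and 0.10 (root at the sum of shoot). Requiring all 4 values above 0, and the last scaling, were chosen after seeing the data. No paired analysis was possible because each organ has 1 library, and for the same reason none could be left out. Depth limits the ratios of loci near silent in an organ.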

Other observations

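The near-equal pairs were spread over all 10 chromosomes, and their share of the neighbours in the gap range varied. It was highest on chromosome 2, with 28 of 968 (2.89%), and on chromosome 7, with 19 of 665 (2.86%). It was lowest on chromosome 3, with 9 of 921 (0.977%), and on chromosome 10, with 6 of 523 (1.15%). The cause was not tested.

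A value of 0 was listed in 3 near-equal pairs, and no fold is given for them; they were named after their values were seen. Besides the pair on chromosome 7, these were the loci on chromosome 1 from 237851385 to 237852593, listed at 0 in shoot and at 4.66 FPKM in root, and from 237887092 to 237888277, at 0.0304 FPKM and 1.46 FPKM. On chromosome 9, the locus of 142945265 to 142946553 had a shoot level of 5.90 FPKM and a listed root value of 0, while that of 142948857 to 142950135 had 1.30 FPKM and 0.0163 FPKM. A locus listed at 0 in an organ had to exceed 1 FPKM in the other to be in the table, so its direction and its call at the low pseudocount follow from the 0.

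Of the 3 pairs called alike toward shoot at the low pseudocount, named after their values were seen, the other 2 lay on chromosomes 2 and 5. On chromosome 2, the loci of 35652163 to 35653506 and of 35666409 to 35667733 had shoot levels of 3.48 and 4.89 FPKM and root levels of 0.207 and 0.148 FPKM. On chromosome 5, the locus of 207974531 to 207976487 had a shoot level of 1.49 FPKM and a root level of 0.133 FPKM, and the one of 207987034 to 207989027 had 99.8 FPKM and 2.51 FPKM, so loci 66.8-fold apart in shoot had the same leaning.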
